A study of Rattus norvegicus with 10 samples.

Results

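The difference between 2 rat strains in how the newborn retina's gene expression stood after cyclic hyperoxia was taken gene by gene. It is the hyperoxia effect in SD minus the hyperoxia effect in F344, each effect being hyperoxia minus room air, and it is called the strain difference below. The rule took all probe sets with 1 gene symbol, which were 15097 of the 27342 on the array, and they stand for 14324 genes, each represented by its brightest probe set. Whole retinas were taken at postnatal day 3. The groups were SD rats in cyclic hyperoxia (2 pools), SD rats in room air (3 pools), F344 (Fischer 344) rats in cyclic hyperoxia (3 pools) and F344 rats in room air (2 pools), with no genetic change or drug in any of them. Exposed litters entered a chamber within 12 hours of birth, together with their mothers, and air of 80% oxygen alternated every 24 hours with air of 21% oxygen. Per the series' design text, F344 resists oxygen-induced retinopathy and SD is susceptible to it, and every array carried pooled RNA of 3 rats that came from 2 litters. Pooling averages over rats, so the spread between pools is not that between single rats.

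Oxygen-induced retinopathy is a rodent model of retinopathy of prematurity. High oxygen slows the growth of the retinal vessels, and the retina later becomes short of oxygen and forms new, disordered vessels. Cells sense oxygen through prolyl hydroxylases (the Egln family), which mark the alpha subunits of hypoxia-inducible factors for destruction while oxygen is plentiful. When oxygen is short these factors persist, bind a short DNA motif near their target genes and raise glycolysis, lactate export, mitochondrial adaptation and vascular growth factors, among them Vegfa.

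Levels and differences are on the log2 scale of the deposited values, which were given to 1 decimal, and a difference of 1 is 2-fold. A strain difference below 0 means that the hyperoxia effect lay lower in SD than in F344. It can come from a lower effect in SD, a higher one in F344, or both. The standard error (SE) and p are from limma with all 10 pools, and adjusted p from the Benjamini-Hochberg method over all probe sets. Array medians lay between 5.9 and 6. As labelled, the samples were rich in retinal markers: the photoreceptor gene Crx averaged 10.95, Rlbp1 of Mueller glia 10.55 and Vim of progenitors and glia 11.04. Array numbers 3 of SD room air and of F344 hyperoxia stood apart from the other 8 on the first principal component (36.41 and 30.08, against at most -1.765), which held 34.1% of the variance. The design text says that 1 array of each of these groups was added later. Those numbered 3 were taken to be the added ones, from the numbering alone. Since 1 is a room-air pool of SD and the other a hyperoxia pool of F344, a shift they share enters the strain difference with the same sign from both, so values without both are given beside the main ones.

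No gene passed the adjusted threshold of 0.05 by limma for the strain difference (0 of 14324, 0%), and the smallest adjusted p was 0.651. The values that follow therefore describe these pools, and none of the strain differences is a call. At an unadjusted p under 0.05 stood 1000 genes (6.98%), 656 of them below 0 (4.58%) and 344 above 0 (2.40%). Without both arrays numbered 3 these were 443 below 0 (3.09%) and 366 above 0 (2.56%), a share below 0 of 54.8%, against 65.6% with all pools. Of the 656 genes 307, and of the 344 genes 196, had such a p on the same side in both fits. All 8 arrays of the smaller fit are among the 10 of the first, so this overlap is a description and no independent support.

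The 24 genes that lead the strain difference were the 12 with the smallest p on each side of 0, and they were of different kinds. Below 0 were Igfbp2, Surf2, Bnip3, Spr, Pfkfb3, Hmg20b, Ak4, Adm, Bhlhe40, Selenom, Nol12 and Cox4i2. Of these, 5 (Bnip3, Pfkfb3, Ak4, Bhlhe40 and Cox4i2) belong to 7 lists of the response to low oxygen. Above 0 were Adra1b, Rrh, Or1ad1, Il1rapl1, Lcn8, Krtap31-1, Krt87, Trim32, Sgms2, Or4c10b, Cyp3a9 and Or9k2b. Of these 0 belong to the oxygen lists, 3 are olfactory receptor genes and 6 lay at a mean level under 5.9, the lowest of the array medians, against 2 of the 12 below 0 and 41.8% of all genes.

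Promoter windows of 4 leading genes below 0 and of Adra1b, which leads above 0, are printed because hypoxia-inducible factors bind ACGTG or GCGTG. The 4 were not chosen by p alone: Surf2, Spr and Hmg20b had a smaller p than Ak4 and are not printed. The sequences are RefSeq's for the assembly GRCr8, from 250 bases before to 50 bases after each gene's start, 5′ to 3′ on the gene's strand. Capitals mark ACGTG and GCGTG read on either strand, and CACGTG holds ACGTG on both. The windows are chr9:81864561-81864860 (plus strand) for Igfbp2, chr1:203154913-203155212 (minus strand) for Bnip3, chr17:71944683-71944982 (plus strand) for Pfkfb3, chr5:121154886-121155185 (plus strand) for Ak4 and chr10:28814298-28814597 (minus strand) for Adra1b.
Igfbp2: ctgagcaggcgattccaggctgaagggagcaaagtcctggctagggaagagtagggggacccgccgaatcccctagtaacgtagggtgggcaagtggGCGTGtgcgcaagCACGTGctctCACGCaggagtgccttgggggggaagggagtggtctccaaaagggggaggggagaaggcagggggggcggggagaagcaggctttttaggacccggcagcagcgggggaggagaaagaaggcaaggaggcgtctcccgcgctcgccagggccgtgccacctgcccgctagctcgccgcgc
Bnip3: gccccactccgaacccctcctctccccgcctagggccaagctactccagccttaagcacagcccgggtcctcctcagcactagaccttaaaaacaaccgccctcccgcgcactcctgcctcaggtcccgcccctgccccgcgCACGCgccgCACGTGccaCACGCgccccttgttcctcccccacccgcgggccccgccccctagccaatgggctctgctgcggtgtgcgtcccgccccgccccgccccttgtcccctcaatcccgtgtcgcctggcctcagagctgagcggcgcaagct
Pfkfb3: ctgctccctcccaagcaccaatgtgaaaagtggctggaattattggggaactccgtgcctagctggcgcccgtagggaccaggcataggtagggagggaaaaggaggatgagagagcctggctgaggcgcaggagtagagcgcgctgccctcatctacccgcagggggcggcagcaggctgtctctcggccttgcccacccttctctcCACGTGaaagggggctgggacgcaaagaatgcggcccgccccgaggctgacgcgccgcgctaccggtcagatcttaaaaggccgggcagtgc
Ak4: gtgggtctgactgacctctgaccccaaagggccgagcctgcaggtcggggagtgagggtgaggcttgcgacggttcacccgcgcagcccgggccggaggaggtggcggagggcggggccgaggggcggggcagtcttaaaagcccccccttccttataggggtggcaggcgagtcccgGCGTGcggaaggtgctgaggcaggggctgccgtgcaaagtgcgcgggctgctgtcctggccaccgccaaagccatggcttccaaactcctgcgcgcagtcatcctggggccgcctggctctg
Adra1b: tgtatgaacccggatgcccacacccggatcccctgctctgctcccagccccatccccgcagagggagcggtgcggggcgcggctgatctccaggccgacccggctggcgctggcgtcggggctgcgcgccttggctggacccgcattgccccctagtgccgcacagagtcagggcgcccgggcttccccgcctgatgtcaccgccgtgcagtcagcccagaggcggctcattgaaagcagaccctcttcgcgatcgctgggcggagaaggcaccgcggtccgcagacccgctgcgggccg
The window of Igfbp2 holds 3 separate stretches in capitals, that of Bnip3 3, those of Pfkfb3 and Ak4 1 each and that of Adra1b 0. Of all 27457 windows 42.9% hold a match, and of the 11806 windows of measured genes 52.1%. A match was in 10 of 11 windows found for the 12 genes below 0 and in 2 of 12 for those above 0. Within the oxygen lists the share was alike for members at an unadjusted p under 0.05 (11 of 14, 78.6%) and for the rest (41 of 57, 71.9%). These letters describe the windows and do not show that a factor was bound.

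Igfbp2 had the smallest p below 0. It encodes a binding protein that holds insulin-like growth factors in the tissue. Its level was 6.6 and 6.7 in the SD hyperoxia pools, against 8.4, 8.5 and 8.6 in SD room air, and it was 7.1, 7.4 and 7.5 in F344 hyperoxia, against 8.2 and 8.2 in F344 room air. Every hyperoxia pool lay under every room-air pool of its strain, with the wider gap in SD. The effect was -1.85 in SD and -0.87 in F344, and the strain difference was -0.98 (SE 0.18, 95% interval -1.37 to -0.59, unadjusted p = 0.000135). Without both arrays numbered 3 it was -0.85. Of the other members of the insulin-like growth factor axis only Igfbp7 also had an unadjusted p under 0.05 (strain difference -0.72, SE 0.301, and -0.35 without both arrays). The 13 measured members had a median of 0.05.

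The oxygen lists held 83 measured genes, of which 15 had an unadjusted p under 0.05 below 0 (18.1%, against 4.58% of all genes) and 0 above 0. Their median strain difference was -0.17, against 0.02 for all genes. Their median level was 8.49, against 6.73 for all genes, and the part of level in these shares was not tested. Without both arrays numbered 3 the count was 22 (26.5%, against 3.09% of all genes) and the median -0.20. F344 hyperoxia pool 2 lay high for many of these genes, and without that pool the count was 14 (5.65% of all genes were below 0 at that p there) and the median -0.10. The mean over 13 lens genes was high in it too (5.723, against 4.992 and 5.138 in the other F344 hyperoxia pools), and the part of lens RNA was not tested. In the fit of all pools, the fit without both arrays and a fit with a term for those arrays alike, 13 of the 83 were at a p under 0.05 below 0, against 1.85% of all genes. The term gives the same strain differences as leaving both arrays out, and only the SE differs. The overlap of the fits was thus largely set in advance and is no separate support. The mean over the 83 genes was 8.18 and 8.187 in SD hyperoxia, against 8.506, 8.607 and 8.465 in SD room air, and 8.275, 8.508 and 8.298 in F344 hyperoxia, against 8.466 and 8.469 in F344 room air. Both SD hyperoxia pools lay under all other pools, while F344 hyperoxia pool 2 lay above both F344 room-air pools.

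**Figure D1:**
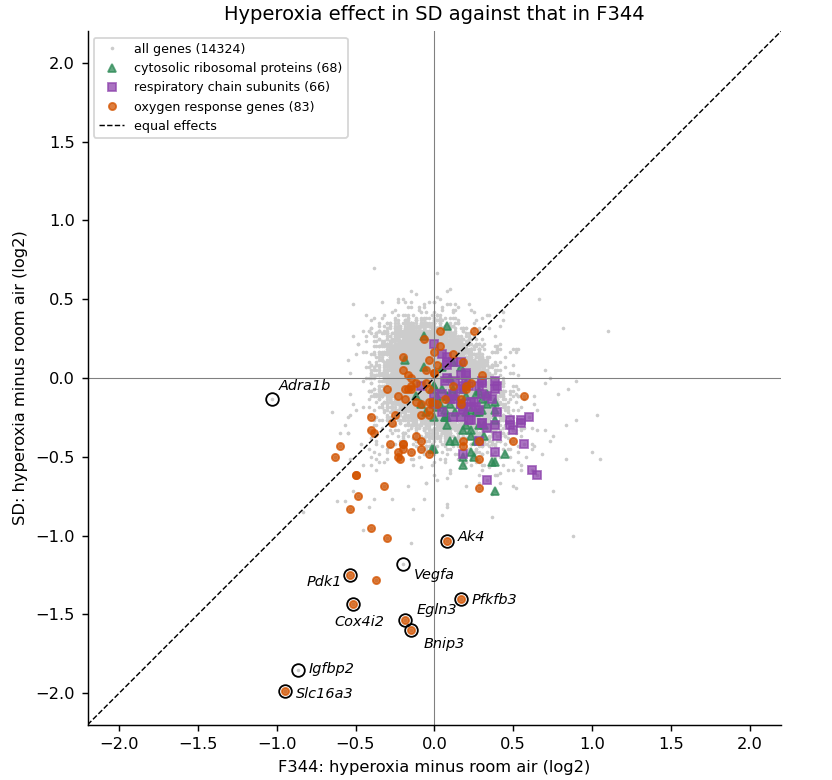
Hyperoxia effect per gene in SD (vertical axis, log2) against that in F344 (horizontal axis, log2), for all 14324 genes in grey, the oxygen lists as circles, respiratory chain subunits as squares and ribosomal proteins as triangles. Points under the dashed line have a strain difference below 0. Bnip3, Pfkfb3, Ak4 and Egln3 lie near 0 on the F344 axis and at -1.03 or lower on the SD axis, whereas Igfbp2 and Slc16a3 lie low on both.

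Among the oxygen sensors and the hypoxia-inducible factors themselves, Egln3 alone of 11 genes had an unadjusted p under 0.05. This prolyl hydroxylase is itself a target of the factors it marks. It stood at 5.4 and 5.6 in SD hyperoxia, against 6.9, 6.9 and 7.3 in SD room air, and at 6.0, 7.2 and 6.5 in F344 hyperoxia, against 6.7 and 6.8 in F344 room air. The SD pools were apart by more than 1 unit, and the F344 pools overlapped. Its strain difference was -1.35 (SE 0.367, unadjusted p = 0.00306), and -1.03 without F344 hyperoxia pool 2. Hif1a, the main oxygen-regulated subunit, had a high level (11.70) and a strain difference of 0.17 (SE 0.144), and Egln1, the widely expressed hydroxylase, one of -0.22 (SE 0.271).

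Pfkfb3 had a strain difference of -1.57, among the lowest of all genes. It makes fructose 2,6-bisphosphate, the activator of phosphofructokinase, and thereby sets the pace of upper glycolysis. Its level was 7.0 and 7.2 in SD hyperoxia, against 8.6, 8.6 and 8.3 in SD room air, and 7.9, 9.0 and 8.2 in F344 hyperoxia, against 8.2 and 8.2 in F344 room air. Only the SD hyperoxia pools were low, and the F344 hyperoxia pools lay on both sides of their room-air pools. The SE was 0.341 (unadjusted p = 0.000595), and leaving out 1 pool at a time gave -1.80 to -1.25. Hk2, a hexokinase, stood at 6.5 and 6.6 in SD hyperoxia, against 8.1, 8.1 and 7.3 in SD room air, and at 7.1, 8.2 and 6.7 in F344 hyperoxia, against 7.8 and 7.6 in F344 room air. Here F344 hyperoxia pool 2 again lay above its room-air pools, and SD room-air pool 3 below its group. The strain difference of Hk2 was -0.92 (SE 0.494, 95% interval -1.99 to 0.16), -1.50 without both arrays numbered 3 and -0.48 without F344 hyperoxia pool 2, so its size depended on which pools entered.

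Few enzymes of glycolysis had an unadjusted p under 0.05, and of all genes 6.98% did in either direction. Of 9 genes of lower glycolysis 0 did (median -0.08), and of 10 genes of upper glycolysis and its regulators only Pfkfb3 did (median 0.07, and 3 genes without both arrays numbered 3). The hyperoxia effects in SD and F344 lay side by side for aldolase Aldoa (-0.62 and -0.50), phosphoglucose isomerase Gpi (-0.62 and -0.50) and phosphoglycerate kinase Pgk1 (-0.50 and -0.63). The 95% interval of the strain difference was -0.49 to 0.26 for Aldoa, -0.51 to 0.27 for Gpi and -0.48 to 0.74 for Pgk1, and without both arrays numbered 3 the values of Aldoa and Pgk1 were -0.20 each. These intervals leave room for differences as large as those of some other genes of the lists, so equal effects are not shown.

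Transport and the fate of pyruvate form a second group. Slc16a3, which exports lactate from glycolytic cells, stood at 6.8 and 7.3 in SD hyperoxia, against 9.0, 9.2 and 8.9 in SD room air, and at 7.2, 8.2 and 7.4 in F344 hyperoxia, against 8.6 and 8.5 in F344 room air. It was lower in every hyperoxia pool of both strains. The strain difference was -1.03 (SE 0.343, unadjusted p = 0.0107), -1.20 without both arrays numbered 3 and between -1.28 and -0.73 with 1 pool left out. Lactate dehydrogenase Ldha, at a level of 12.28, had a strain difference of 0.15 (SE 0.199), and the glucose transporter Slc2a1 one of -0.27 (SE 0.185).

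Of 9 genes that gate pyruvate or adapt mitochondria to low oxygen, 4 had an unadjusted p under 0.05 below 0 (44.4%, against 4.58% of all genes). Above 0 there were 0, against 2.40% of all genes. The median was -0.45 with and without both arrays numbered 3, and -0.33 without F344 hyperoxia pool 2. Cox4i2, the cytochrome oxidase subunit isoform used in low oxygen, stood at 7.7 and 7.9 in SD hyperoxia, against 9.0, 9.3 and 9.4 in SD room air, and at 8.1, 8.1 and 8.5 in F344 hyperoxia, against 8.7 and 8.8 in F344 room air. The groups of neither strain overlapped, and the gap was wider in SD (strain difference -0.92, SE 0.216, unadjusted p = 0.00112, and -0.70 without both arrays). Cox4i1, the isoform used in ample oxygen, had a strain difference of the same sign (-0.68, SE 0.25), which was -0.45 without both arrays (unadjusted p = 0.0887). Pdk1, the kinase that turns off pyruvate dehydrogenase, was at -0.72 (SE 0.194), and Fam162a, a mitochondrial target of hypoxia-inducible factor, at -0.72 (SE 0.172).

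Bnip3, a receptor on mitochondria that brings about their removal, had the lowest value among 7 genes of mitophagy and stress under low oxygen. It stood at 9.1 and 9.5 in SD hyperoxia, against 10.8, 10.7 and 11.2 in SD room air, and at 9.8, 10.2 and 10.6 in F344 hyperoxia, against 10.4 and 10.3 in F344 room air. The F344 groups overlapped, with F344 hyperoxia pool 3 above both room-air pools. The strain difference was -1.45 (SE 0.303, unadjusted p = 0.000421) and -1.10 without both arrays numbered 3, and a further probe set of the gene gave -1.23 (SE 0.256). Its paralog Bnip3l, of like function, had hyperoxia effects of -0.28 in SD and -0.27 in F344 and a strain difference of -0.02 (SE 0.149, 95% interval -0.34 to 0.31). Ddit4, an inhibitor of mTORC1 signalling, lay high in F344 hyperoxia (8.8, 9.5 and 8.9, against 8.4 and 8.6 in F344 room air), while the SD pools overlapped (strain difference -0.68, SE 0.267).

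Of 29 further targets of hypoxia-inducible factor, 6 had an unadjusted p under 0.05 below 0 (20.7%, against 4.58% of all genes) and 0 above 0 (median -0.25). Those were Ak4, Bhlhe40, Stc2, Ankrd37, Mif and Gbe1. Ak4, a mitochondrial adenylate kinase, stood at 6.4 and 6.6 in SD hyperoxia, against 7.5, 7.3 and 7.8 in SD room air, and at 7.0, 7.6 and 7.4 in F344 hyperoxia, against 7.2 and 7.3 in F344 room air. Both SD hyperoxia pools lay below the other pools of either strain (strain difference -1.12, SE 0.252, unadjusted p = 0.000779, and -0.95 without both arrays numbered 3). Bhlhe40, a repressor in the circadian clock, was at -0.98 (SE 0.227), and Ankrd37 had effects of -0.40 in SD and 0.50 in F344. Without both arrays the count was 10 (34.5%, against 3.09% of all genes), and without F344 hyperoxia pool 2 the median was -0.07. Epo, the hormone of red cell formation, was dim, at 4.7 or 4.8 in every pool.

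**Figure D2:**
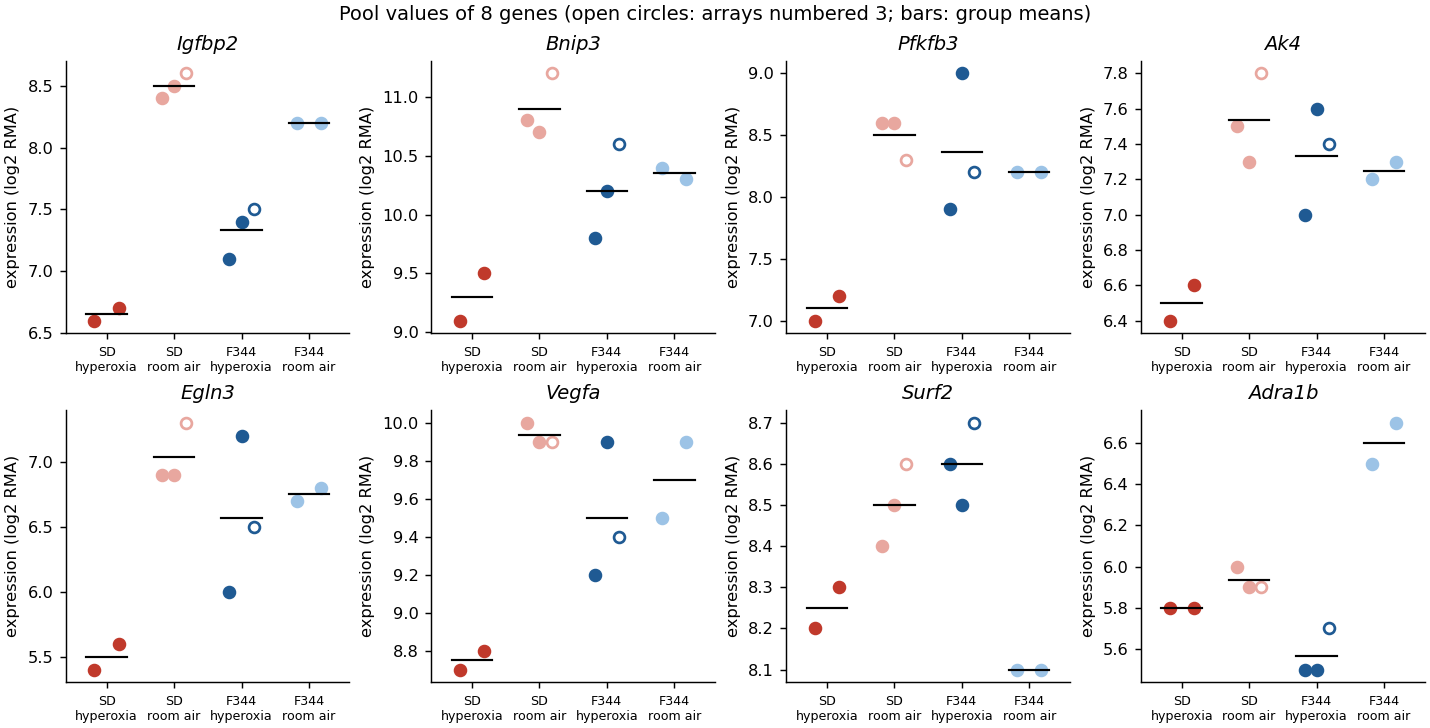
Levels (log2 RMA) of 8 genes in the 10 pools, by group, with group means as bars and the arrays numbered 3 as open circles. In Pfkfb3, Ak4, Egln3 and Vegfa the SD hyperoxia pools lie under all other pools, in Surf2 the order of hyperoxia and room air is opposite in the strains, and in Adra1b the F344 room-air pools lie above all others.

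Angiogenic and vasoactive ligands and receptors numbered 24, of which 3 ligands (Vegfa, Adm and Pgf) had an unadjusted p under 0.05 below 0 and 0 genes above 0 (12.5% below 0, against 4.58% of all genes). The list's median was -0.10, and 0 without both arrays numbered 3. Vegfa, the main growth factor of retinal vessels, stood at 8.7 and 8.8 in SD hyperoxia, against 10, 9.9 and 9.9 in SD room air, and at 9.2, 9.9 and 9.4 in F344 hyperoxia, against 9.5 and 9.9 in F344 room air. The SD groups were apart by more than 1 unit and the F344 groups overlapped. Its strain difference was -0.98 (SE 0.255, 95% interval -1.54 to -0.43, unadjusted p = 0.00223), and -1.05 without both arrays. Adm, the vasodilator adrenomedullin, was dim (4.6 and 4.7 in SD hyperoxia, against 5.2, 5.0 and 5.4 in SD room air, and 5.0, 5.1 and 5.0 in F344 hyperoxia, against 4.7 and 4.9 in F344 room air), with the order of the groups opposite in the strains (strain difference -0.78, SE 0.18). Pgf, a relative of Vegfa, was at -0.67 (SE 0.212). The receptor genes Flt1 and Tek stood at 0.02 (SE 0.227) and 0.08 (SE 0.24), and at 0.25 each without both arrays. Other members lay further from 0 on either side, such as Ramp2 at -0.68 (SE 0.354, and -0.25 without both arrays) and Flt4 at 0.28 (SE 0.164).

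Among vessel markers, of 20 endothelial genes 0 had an unadjusted p under 0.05 (median -0.10, and -0.03 without both arrays numbered 3). Of 13 pericyte and smooth muscle genes 0 did (median -0.05). Of all genes 6.98% did in either direction, so 0 in lists of this size says little. The endothelial genes Cldn5 and Cdh5 had strain differences of -0.22 (SE 0.19) and -0.08 (SE 0.227). In whole retina, fewer cells of a type and less RNA per cell cannot be told apart. Collagen prolyl hydroxylase P4ha1 was at -0.90 (SE 0.29) and lysyl oxidase-like Loxl4 at 0.42 (SE 0.174). Each had an unadjusted p under 0.05, alone on its side among 11 collagen hydroxylases and lysyl oxidases. These were 9.09% on each side, against 4.58% of all genes below 0 and 2.40% above 0.

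**Figure D3:**
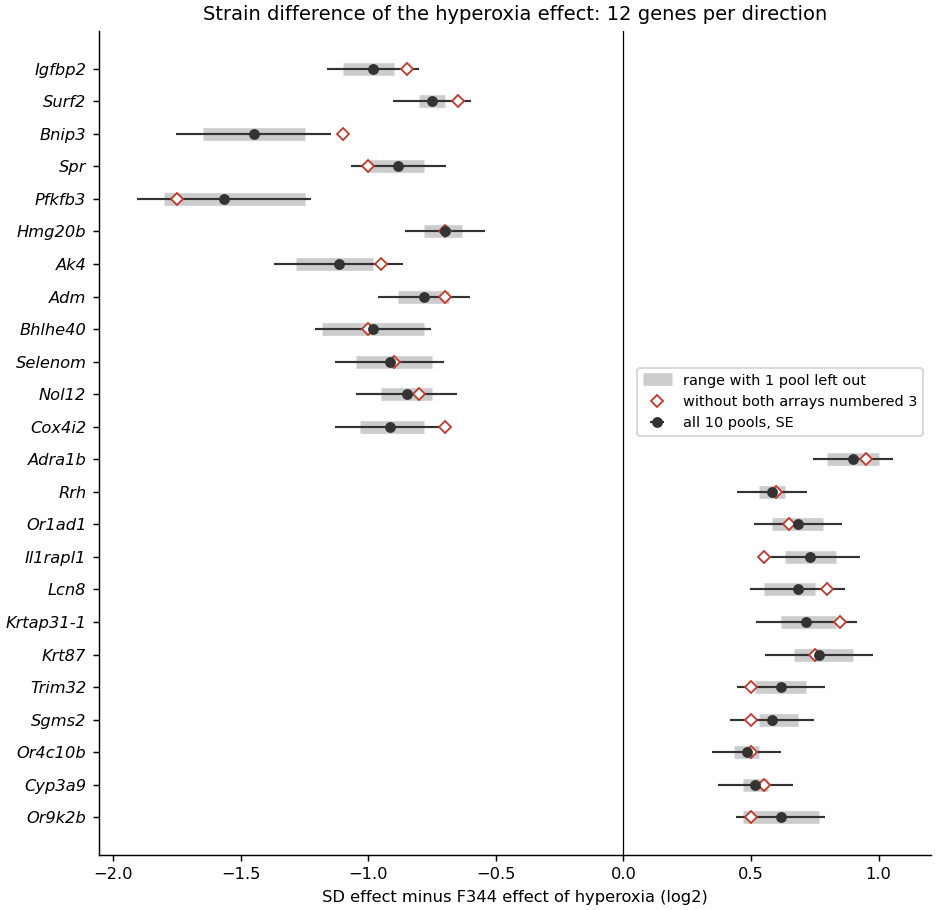
Strain difference (log2, horizontal axis) of the 12 genes with the smallest p on each side of 0, with SE bars, the range with 1 pool left out as grey bands and the value without both arrays numbered 3 as diamonds. Every band and diamond lies on the same side of 0 as its gene's value, and Bnip3 moves most, to -1.10 without both arrays.

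Adra1b, an alpha-1 adrenergic receptor through which noradrenaline raises calcium in cells, had the smallest p of all genes and lay above 0. It stood at 5.8 and 5.8 in SD hyperoxia, against 6.0, 5.9 and 5.9 in SD room air, and at 5.5, 5.5 and 5.7 in F344 hyperoxia, against 6.5 and 6.7 in F344 room air. Only the F344 room-air pools were high, and the groups of both strains did not overlap. The strain difference was 0.90 (SE 0.156, 95% interval 0.56 to 1.24, unadjusted p = 8.31e-05), 0.95 without both arrays numbered 3 and 0.80 to 1.00 with 1 pool left out. The other 6 measured adrenergic receptors had no unadjusted p under 0.05, and the list's median was 0. Fn1, fibronectin of the matrix, and Kcnj10, a potassium channel of glia, also had high F344 room-air pools (9.1 and 9.2 for Fn1, 6.6 and 6.8 for Kcnj10) and strain differences of 0.43 each (SE 0.174 and 0.17).

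The rest of the leading genes above 0 had values from 0.48 to 0.77. Rrh, an opsin-like protein of the pigment epithelium, stood at 7.9 and 8.0 in SD hyperoxia, against 7.6, 7.6 and 7.6 in SD room air, and at 7.6, 7.7 and 7.7 in F344 hyperoxia, against 7.9 and 7.9 in F344 room air. The order of hyperoxia and room air was thus opposite in the strains (strain difference 0.58, SE 0.136). Trim32, a ubiquitin ligase, was at 0.62 (SE 0.172) and Il1rapl1, a synaptic adhesion protein, at 0.73 (SE 0.193). Genes above 0 at an unadjusted p under 0.05 were dim as a set: their median level was 5.42, against 7.78 for those below 0 and 6.73 for all genes. Olfactory, vomeronasal and trace amine-associated receptor genes made up 22.1% of them (76 of 344), against 0.762% of those below 0 and 8.76% of all genes. This list was added after the values were seen, signal over background was not analysed here, and the part of dimness in these values was not tested.

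Surf2, Hmg20b and Spr led below 0 without being in the oxygen lists. Surf2, a gene of the surfeit cluster, stood at 8.2 and 8.3 in SD hyperoxia, against 8.4, 8.5 and 8.6 in SD room air, and at 8.6, 8.5 and 8.7 in F344 hyperoxia, against 8.1 and 8.1 in F344 room air. Its pools were thus in opposite order without overlap, and the strain difference was -0.75 (SE 0.152, unadjusted p = 0.000333, and -0.65 without both arrays numbered 3). Hmg20b, a subunit of a histone demethylase complex, had the same order (strain difference -0.70, SE 0.156). Such an order without overlap was found in 14 of the 63 named genes, which were partly chosen by p, and in 1.22% of all genes. Spr, sepiapterin reductase of the synthesis of tetrahydrobiopterin, stood at 6.8 and 6.9 in SD hyperoxia, against 7.6, 7.7 and 7.3 in SD room air, and at 6.6, 6.8 and 6.7 in F344 hyperoxia, against 6.6 and 6.4 in F344 room air. Only the SD room-air pools were high (strain difference -0.88, SE 0.187, and -1.0 without both arrays).

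The same difference can be read between the strains within each exposure. In hyperoxia SD minus F344 passed an adjusted p of 0.05 by limma for 0.475% of genes, and in room air for 0.552%. The named genes were mostly chosen by p of the strain difference, which is made of these contrasts. Passing among them is thus favoured by the choice and is not to be set against those shares. Of the 63 named genes, Igfbp2 (-0.68, SE 0.127, adjusted p = 0.038) and Pfkfb3 (-1.27, SE 0.241, adjusted p = 0.0442) were lower in SD under hyperoxia. Of 10 fits with 1 pool left out, Igfbp2 passed only without F344 hyperoxia pool 1 or SD room-air pool 3, and Pfkfb3 only without those or F344 hyperoxia pool 2. Neither passed by limma without both arrays numbered 3 (adjusted p = 0.122 for Igfbp2 and 0.183 for Pfkfb3). Both passed with a term for those arrays (adjusted p = 0.0182 and 0.0116). In room air Spr (1.03, SE 0.132, adjusted p = 0.00298) and C1qc (0.67, SE 0.122, adjusted p = 0.0308) were higher in SD, and Adra1b (-0.67, SE 0.11, adjusted p = 0.0161) and Fn1 (-0.68, SE 0.123, adjusted p = 0.0284) were lower. Spr passed in 9 of those 10 fits (not without F344 room-air pool 2, adjusted p = 0.106), and Adra1b in 7 (not without SD room-air pool 2 or without either of the F344 pools in room air). C1qc passed only without F344 hyperoxia pool 3 or SD room-air pool 2, and Fn1 only without F344 hyperoxia pool 2 or 3. Without both arrays numbered 3, Spr, Adra1b, C1qc and Fn1 passed in room air by limma (adjusted p = 0.00647, 0.0365, 0.0375 and 0.0345). In room air Igfbp2 stood at 0.30 and Pfkfb3 at 0.30 (SD minus F344), and in hyperoxia Spr stood at 0.15 and Adra1b at 0.23.

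Genes of protein synthesis and respiration also lay mostly below 0. Of 66 respiratory chain subunits 60 were below 0, against 6612 of all 14324 genes. Of the 66 subunits, 19 had an unadjusted p under 0.05 there (28.8%, against 4.58% of all genes), with 0 above 0 and a median of -0.38. Of 68 cytosolic ribosomal proteins 62 were below 0, 20 of them at that p (29.4%), with 0 above 0 and a median of -0.36. Both medians were -0.20 without both arrays numbered 3, with 14 respiratory (21.2%) and 11 ribosomal genes (16.2%) at that p, against 3.09% of all genes. Ribosomal protein genes have many processed copies in the genome, so their probe sets may read more than 1 locus. The median levels of the respiratory and ribosomal lists were 9.11 and 10.78, against 6.73 for all genes. Of all genes below 0 at that p with all pools, 14.5% had a mean level under 5.9, against 41.8% of all genes. The part of level in these shares was not tested. Ndufa11, of complex I, stood at 7.9 and 7.9 in SD hyperoxia, against 8.1, 8.6 and 8.4 in SD room air, and at 8.2, 7.9 and 8.3 in F344 hyperoxia, against 7.9 and 7.6 in F344 room air. The SD groups were apart and the F344 groups overlapped (strain difference -0.85, SE 0.229). Rps21, of the small ribosomal subunit, was at -0.75 (SE 0.185), and its 3 further probe sets were between -0.78 and -0.42.

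The median SD and F344 effects differed in sign in these 2 lists, and both were below 0 in the oxygen lists (-0.23 and -0.12). Of the 656 genes below 0 at an unadjusted p under 0.05, 625 had an SD effect below 0 and an F344 effect above 0. Pfkfb3, Ak4 and Bhlhe40 of the oxygen lists were among these, whereas Bnip3, Egln3 and Slc16a3 had both effects below 0. Of the 344 genes above 0 at that p, 332 had the reverse signs. All these genes were picked by the difference of the 2 effects, which favours opposite signs. The counts are thus largely set by the choice and are no separate result. The median SD effect was -0.15 for the respiratory chain and -0.20 for ribosomal proteins, and the median F344 effect was 0.23 and 0.13. The mean over respiratory chain genes was 9.111 and 9.03 in SD hyperoxia, against 9.074, 9.245 and 9.371 in SD room air, and 9.098, 9.062 and 9.388 in F344 hyperoxia, against 9.026 and 8.836 in F344 room air. Arrays 3 were the highest of all 10, F344 room-air pool 2 was the lowest, and the SD groups overlapped. Ribosomal proteins had means of 10.587 and 10.549 in SD hyperoxia, against 10.669, 10.801 and 10.846 in SD room air, and of 10.568, 10.506 and 10.794 in F344 hyperoxia, against 10.554 and 10.385 in F344 room air. The part of single arrays in these values was not tested beyond leaving them out.

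**Figure D4:**
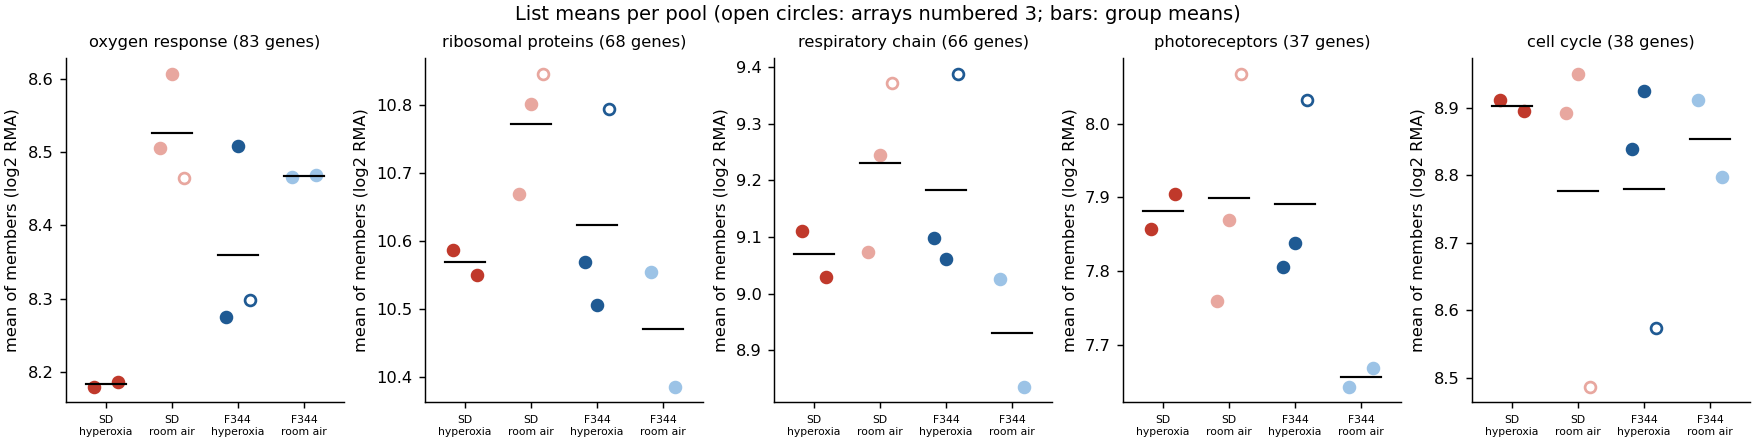
Mean level (log2 RMA) over the genes of 5 lists in the 10 pools, by group, with group means as bars and the arrays numbered 3 as open circles. For oxygen genes the SD hyperoxia pools lie lowest, whereas for ribosomal, respiratory chain and photoreceptor genes the arrays numbered 3 lie high and for cell cycle genes they lie low.

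The antioxidant, photoreceptor and cell cycle lists moved without the arrays numbered 3. Of 28 antioxidant genes 6 had an unadjusted p under 0.05 below 0 (21.4%, against 4.58% of all genes) and 0 above 0, and 3 did without both arrays (10.7%, against 3.09%). Their median was -0.18, and -0.10 without both arrays. They were led by Nfe2l2, the regulator of antioxidant genes, at 7.1 and 7.1 in SD hyperoxia, against 7.4, 7.5 and 7.8 in SD room air, and 7.3, 7.3 and 7.7 in F344 hyperoxia, against 7.1 and 7.2 in F344 room air (strain difference -0.75, SE 0.21, and -0.50 without both arrays). The groups did not overlap and lay in opposite order in the strains. Hmox1, heme oxygenase, was at -0.25 (SE 0.143). Of 37 photoreceptor genes 4 were at that p below 0 (10.8%), and 2 without both arrays (5.41%). The median was -0.20, and -0.05 without both arrays, with Sag, rod arrestin, at -0.92 (SE 0.326, and -0.50 without both arrays). Of 38 cell cycle genes 0 were at that p on either side, against 6.98% of all genes. Their median was 0.20, and -0.05 without both arrays. Cell cycle means in the arrays numbered 3 were 8.487 in SD room air and 8.574 in F344 hyperoxia, against 8.797 to 8.95 in the other 8.

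Markers of microglia, astrocytes and fibroblasts had median levels of 5.40, 5.85 and 6.23, against 6.73 for all genes. Of 21 microglial genes 3 (C1qc, Aif1 and Fcer1g) had an unadjusted p under 0.05 below 0 (14.3%, against 4.58% of all genes) and 1 (Mrc1) above 0 (4.76%, against 2.40%). Without both arrays numbered 3 there were 2 below 0 and 2 above 0 (9.52% each, against 3.09% and 2.56%). C1qc, of the complement system, stood at 5.9 and 5.9 in SD hyperoxia, against 6.3, 6.2 and 6.6 in SD room air, and at 5.9, 5.9 and 6.0 in F344 hyperoxia, against 5.7 and 5.7 in F344 room air. The strains were close in hyperoxia and apart in room air (strain difference -0.70, SE 0.173). Irf1, an interferon-regulated factor, was at -1.0 (SE 0.239), with the list of 22 interferon genes at a median of 0.10. Of 13 astrocyte genes 1 (S100b, -0.43, SE 0.182) was at an unadjusted p under 0.05 below 0 and 1 (Kcnj10, 0.43, SE 0.17) above 0. These were 7.69% each, against 4.58% and 2.40% of all genes. The list's median was -0.02, and 0.05 without both arrays. Gfap, also of astrocytes, had a strain difference of -0.03 (SE 0.21, 95% interval -0.49 to 0.42). Lens markers, which could come with the tissue, had list means of 4.992 to 5.977 over the pools, with the highest in SD room-air pool 3 and the next, 5.723, in F344 hyperoxia pool 2. All 13 lens genes lay below 0 (median -0.30, and -0.10 without both arrays or without F344 hyperoxia pool 2), and their part in the results was not tested. Of 18 fibroblast and matrix genes 1 (Dcn) was at an unadjusted p under 0.05 below 0 and 1 (Fn1, 0.43) above 0. These were 5.56% each, against 4.58% and 2.40% of all genes. The list's median was -0.02, and 0.10 without both arrays. Decorin, Dcn, had a strain difference of -1.47 (SE 0.607), and -0.75 without both arrays. With 1 pool left out it ran from -1.97 to -0.95, with -0.97 when SD hyperoxia pool 2 was left out and -0.95 when SD room-air pool 3 was.

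**Figure D5:**
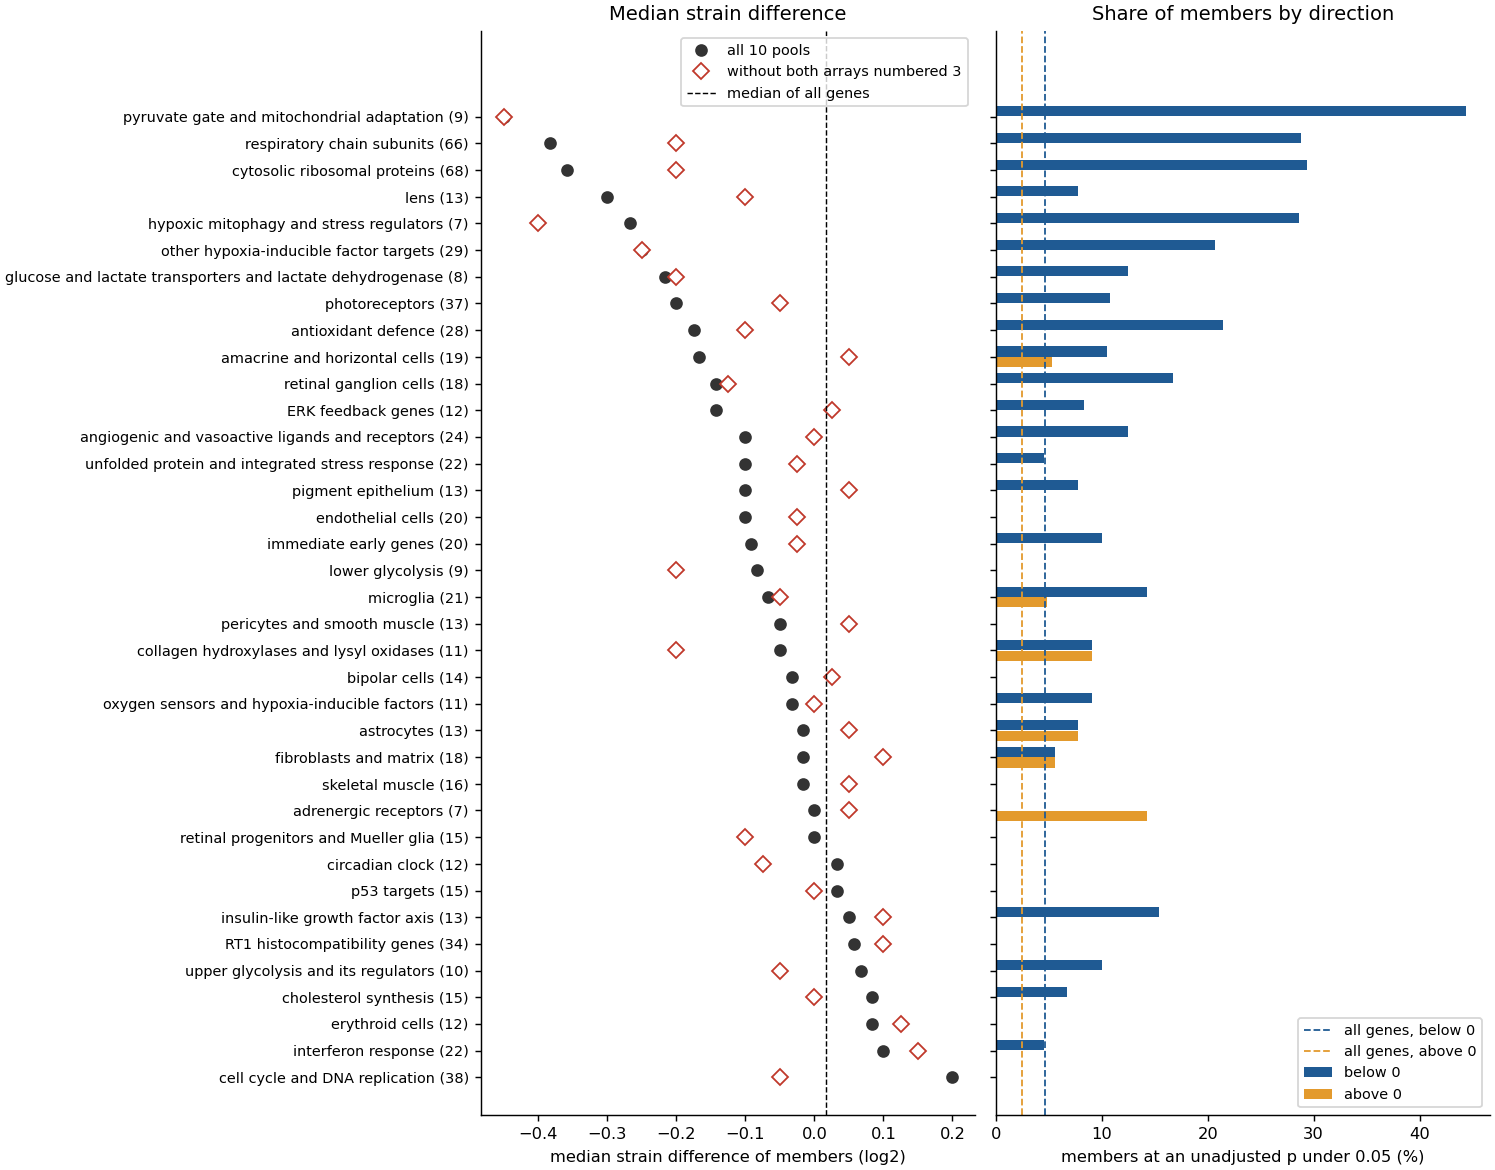
Left, median strain difference (log2) of the members of each gene list, with all 10 pools (filled) and without both arrays numbered 3 (open), and the number of measured genes in brackets. Right, share of members (%) at an unadjusted p under 0.05 below 0 and above 0, with dashed lines for all genes (4.58% and 2.40%). Respiratory chain and ribosomal lists move to -0.20 without both arrays, the pyruvate gate list stays at -0.45 and the cell cycle list crosses 0.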

How the data were processed

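The deposited values are log2 expression values of probe sets of an Affymetrix whole-transcript rat gene array, given by the authors. Per the submitters' processing notes the tools were RMA and Partek 6.4, whose roles and order are unstated. How background and scaling were handled, and the annotation and build used, is not given in the sources used here. Values to 1 decimal blur small differences, and 10 arrays set the precision.

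In R 4.3.3 with limma 3.58.1 (lmFit, eBayes, two-sided), a model with group means was fitted over all 27342 probe sets and 10 arrays (6 residual degrees of freedom, 12.19 after moderation). Of the probe sets 323 had several symbols and 11922 none, and 15067 of those with 1 matched the GRCr8 gene table. For 499 genes with several probe sets, the brightest was used. The fit was tested on simulated data.

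The genes named are the 12 with the smallest p in each direction, up to 2 of each of 37 lists by p, and Vegfa, Egln3, Slc16a3, Hk2, Pdk1, Hmox1, Epo and Gfap. Others were chosen after their values were seen. Members, lists and tests were chosen with earlier results of these data known, and Bnip3, Egln3, Hk2 and Slc16a3 are known from the study's own account. Replicates are pools of different rats. Alternatives left out pools, added a term for the arrays numbered 3 or a replicate block, and varied normalization, filter and eBayes. Replicate numbers were not taken to pair the samples.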

Additional observations from a re-analysis of the deposited data

Results flagged for a closer look

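In 14 named genes every SD hyperoxia pool lay on one side of the SD room-air pools and every F344 hyperoxia pool on the other side of its own. Below 0 these were Surf2 (strain difference -0.75), Hmg20b (-0.70), Adm (-0.78), the antioxidant regulator Nfe2l2 (-0.75), the glutathione peroxidase relative Gpx7 (-0.52), the immediate early gene Ier2 (-0.77), Irf1 (-1.0) and C1qc (-0.70). Above 0 they were Rrh (0.58), the olfactory receptor gene Or1ad1 (0.68), the lipocalin gene Lcn8 (0.68), the hair keratin associated gene Krtap31-1 (0.72), Trim32 (0.62) and the cytochrome P450 gene Cyp3a9 (0.52). The limma test of the difference passed for none of them after adjustment (smallest adjusted p 0.651), and the opposite order itself was not tested. Over all genes 175 had such an order, 104 with SD lower and F344 higher in hyperoxia (0.726%) and 71 the other way (0.496%). The named genes were partly chosen by p of the strain difference, which favours such an order. With 2 or 3 pools per group, an order without overlap can also arise by chance. How often it would was not estimated, so the order is not shown to be unusual.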

How the results depend on the processing

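No gene passed the adjusted threshold for the strain difference under any alternative run. At an unadjusted p under 0.05 stood 1000 genes, and 593 in the brighter part of the probe sets (467 below 0). With 1 pool left out the count ran from 484 (without SD hyperoxia pool 1) to 1406 (without F344 hyperoxia pool 2), and it was 494 without F344 room-air pool 2, 606 without F344 hyperoxia pool 3 and 649 without SD hyperoxia pool 2. The share below 0, 65.6% with all pools, was 54.8% without both arrays numbered 3, 55.2% with a term for them, 57.6% after repeated quantile normalization and 78.8% in the brighter part. Same-numbered pools of F344 hyperoxia and SD room air deviated together (correlations 0.314, 0.397 and 0.643), each best with its own number. Those of the other group pairs ran from -0.073 to 0.108. In a group of 2 pools the deviations are equal and opposite, so those pairs can hardly show a pairing. Whether the numbers pair the pools is thus not settled, and the main fit did not take them as pairs. The replicate block gave 822 genes and changed no call of the strain difference. SD minus F344 within an exposure passed for 68 genes in hyperoxia and 79 in room air. These counts were 126 and 216 with the array term, 110 and 172 with the replicate block, 157 and 159 with array weights, and 43 and 56 in the brighter part, and with 1 pool left out they ran from 20 to 81 and from 19 to 121. Of 1174 values of named genes under alternatives, 9 turned in sign, all of Gfap and Epo. Gfap (-0.03) stood at 0.05 with the array term, without both arrays and with the replicate block, and from -0.18 to 0.12 with 1 pool left out. Epo (0.02) stood at -0.03 after quantile normalization, and from -0.033 to 0.067 with 1 pool left out. The cause was not tested. Leaving out a pool of a group of 2 assumes that the lone pool varies like the others. Of 741 list medians under alternatives, 121 moved by more than the spread between pools. Signal over background was not analysed.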

Other observations

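The genes with the largest strain differences by size were mostly not those with the smallest p. Their choice followed from the values. The histone gene H2ac21 had the lowest value, -1.88 (SE 0.565), with a hyperoxia effect of -1.0 in SD and 0.88 in F344, and it stood at -1.05 without both arrays numbered 3. Pmch, which encodes the precursor of melanin-concentrating hormone, was at -1.57 (SE 0.983), and at -0.05 without them. Srp9, of the signal recognition particle, was at -1.47 (SE 0.672), and at -0.45. Above 0, Med14, of the Mediator complex, had the highest value, 1.08 (SE 0.634), and 0.15 without those arrays, and the forkhead gene Foxn3 was at 0.98 (SE 0.367), and at 0.50. Of the 656 genes below 0 at an unadjusted p under 0.05, 34 had a size of at least 1, and of the 344 above 0 it was 0.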
